A study of Mus musculus with 12 samples.

Results

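The mitochondrial ribosomal protein genes were followed across 12 RNA-seq libraries of mouse bone marrow cells sorted as hematopoietic stem cells (HSCs). Members were all gene names that start with Mrpl or Mrps followed by a number and at most 1 letter, and 78 of the 31340 gene rows met this rule. By name, 49 belong to the large subunit (Mrpl) and 29 to the small subunit (Mrps). All 78 passed the filter on low values in each of the 6 comparisons.

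The 4 groups of 3 libraries each were labelled Ctrl, IR, Ab_IR and L_IR, all from WT mice kept under specific pathogen-free conditions. IR stands for ionizing radiation, given as a single exposure of the whole body according to the study's methods, whose HSC gate took lineage-negative cells with Sca-1 and c-Kit but without Flt3 and CD34. The labels place the sort at day 3 after IR, use the same sampling text for Ctrl, give no age, and do not spell out Ab or L. Values were read as FPKM, that is, fragment numbers scaled to gene length and library size, and the sequencing depth is unknown. Nothing states that the 3 libraries of a group came from separate mice, so p-values measure the spread between libraries, which may be technical.

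The mitochondrial ribosome translates the few mRNAs encoded by mitochondrial DNA, all of which specify subunits of the respiratory chain and ATP synthase. Its RNA comes from the mitochondrial genome, whereas its proteins are encoded in the nucleus, made in the cytosol and imported. Resting HSCs are known to rely little on respiration and to raise mitochondrial activity when they are activated.

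The members are spread over 17 chromosomes, and 69 of them had an entry in the RefSeq promoter table (GRCm38.p6), which covers 250 bases before to 50 bases after each start site. Letters of motifs for factors known to act on nuclear genes for mitochondria were searched on both strands. The NRF1 letters GCGCATGCG stood in 7 of 69 member promoters (10.1%), against 1.95% of 27025 genes in the table. The ETS core CCGGAAG, bound by GABP and its relatives, stood in 26 (37.7%) against 9.93% of genes, and the YY1 letters AAGATGGC in 12 (17.4%) against 3.19%. The CCAAT box, letters CCAAT, stood in 27 (39.1%) against 41.1% of genes. At least 1 of the NRF1, ETS and YY1 motifs was present in 38 member promoters (55.1%), against 14.1% of genes. No motif contains another, and a match is a description of the sequence only.

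Stretches of 4 promoters are shown because their genes recur below or hold matches of different kinds close to the start. Mrpl52 has an ETS core on the other strand, Mrpl22 an ETS core followed by NRF1 letters, Mrps12 repeated CCAAT boxes, and Mrpl17 NRF1 letters next to its start. Each is printed 5′ to 3′ on the strand of the gene, with the motif letters in capitals. The first 3 run from base -120 to base -6 before the RefSeq start, and that of Mrpl17 is 30 bases around it. Of these 30 bases, 17 lie in an exon of the GENCODE M21 gene models, the NRF1 letters among them.
Mrpl52, chr14:54426789-54426903, + strand: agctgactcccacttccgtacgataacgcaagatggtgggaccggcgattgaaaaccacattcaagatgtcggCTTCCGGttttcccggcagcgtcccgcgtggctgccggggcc
Mrpl22, chr11:58171544-58171658, + strand: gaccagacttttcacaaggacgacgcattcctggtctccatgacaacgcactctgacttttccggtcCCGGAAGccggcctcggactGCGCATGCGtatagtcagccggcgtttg
Mrps12, chr7:28741827-28741941, - strand: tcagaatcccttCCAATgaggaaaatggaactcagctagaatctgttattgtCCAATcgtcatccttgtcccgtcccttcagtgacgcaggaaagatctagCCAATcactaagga
Mrpl17, chr7:105811083-105811112, - strand: cgcgccgagttactGCGCATGCGtcctctg

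The libraries were checked before the members were compared. Ctrl replicate 1 stood apart, with 44.1% of rows at 0 against 24.7% to 27.3% in the other 11 libraries. The numbers of calls against Ctrl are therefore given with and without it. The 14 HSC and progenitor markers summed to 114 to 121 FPKM in Ctrl, 76.7 to 84.2 in IR, 104 to 112 under Ab_IR and 108 to 109 under L_IR, and 4 of them (Slamf1, Mecom, Fgd5 and Hoxb5) stayed under 1 FPKM in all libraries. Of the 9 tested, 7 fell in IR against Ctrl and 1 rose, with a median log2 fold change of -1.51, or -1.35 without Ctrl replicate 1 and the same counts. Cd34 was at 19.0 to 20.7 FPKM in Ctrl and 3.66 to 3.91 in IR, and Flt3 at 9.13 to 12.1 and 0.96 to 1.22, although the gate was to lack both proteins. Ly6a, which encodes Sca-1, was at 25.9 to 41.1 FPKM in Ctrl and 53.7 to 61.5 in IR. Lists of other cell types also moved with the groups. The 10 erythroid markers summed to 3925 to 4507 FPKM in Ctrl, 620 to 632 in IR, 3810 to 4002 under Ab_IR and 1948 to 2008 under L_IR. The 12 neutrophil and monocyte markers summed to 11090 to 13030, 16900 to 17170, 12180 to 12760 and 9019 to 9229 in the same order, and the 11 B and plasma cell markers to 10060 to 13270, 17440 to 18660, 17880 to 18500 and 25600 to 26480. The 7 megakaryocyte and platelet markers summed to 59 to 74.3 FPKM, 15.0 to 17.5, 148 to 151 and 92.4 to 97.9 in that order, the 8 macrophage markers to 84.1 to 88.5, 61.6 to 66.9, 89.0 to 98.9 and 84.3 to 93.1, and the 8 cycling cell markers to 717 to 870, 689 to 692, 680 to 729 and 677 to 703. Nppa, which encodes atrial natriuretic peptide, was at 51.2 to 63.9 FPKM in all IR libraries and Ctrl replicates 2 and 3, against 0 to 0.26 in the other 7, a split that coincides with the step from IR to Ab_IR or L_IR. The part of these differences in the results on mitochondrial ribosomal genes was not tested, and in such bulk samples fewer cells of a type and less RNA per cell cannot be told apart.

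Levels differed widely between members. Single values ranged from 0.67 FPKM (Mrpl57 in Ctrl replicate 1) to 83.0 FPKM (Mrpl18 in IR replicate 2), and the median member mean was 15.3 FPKM for the large and 11.3 FPKM for the small subunit. Mrpl18, the uL18 protein of the central protuberance, was the most abundant member with 55.3 to 83.0 FPKM. Mrps10, a protein of the small subunit head, was the least abundant with 2.58 to 3.88 FPKM.

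Summed over its 49 genes, the large subunit gave 653, 893 and 844 FPKM in Ctrl replicates 1 to 3. The sums were 901 to 913 FPKM in IR, 906 to 948 in Ab_IR and 849 to 866 in L_IR. The small subunit gave 295, 410 and 387 FPKM in Ctrl, 403 to 425 in IR, 419 to 430 under Ab_IR and 384 to 404 under L_IR. Ctrl replicate 1 was the lowest library for both subunits, and the other 2 Ctrl libraries lay within or next to the range of the irradiated groups. For both subunits the L_IR sums lay below those of Ab_IR with no overlap, but with immunoglobulin rows taken out the large subunit held 2725 ± 123 parts per 1000000 of the summed FPKM in Ab_IR and 2777 ± 15.2 in L_IR, and the small subunit 1241 ± 35.7 and 1273 ± 26.6 (SD, n = 3). The large subunit parts were 2803, 2789 and 2584 in Ab_IR and 2780, 2790 and 2760 in L_IR, so the lower Ab_IR mean rests on replicate 3. The large subunit exceeded the small one by a nearly fixed ratio, 2.14 to 2.26 in all 12 libraries. Mrps18a and Mrps30 are large subunit proteins in structures of the mammalian ribosome despite their names. Both were counted there in a second ratio, which also left Mrps36 out of the small subunit. It averaged 2.39 ± 0.03 (Ctrl), 2.37 ± 0.05 (IR), 2.39 ± 0.06 (Ab_IR) and 2.37 ± 0.04 (L_IR, SD, n = 3). Without Ctrl replicate 1 the Ctrl mean of this ratio was 2.37.

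**Figure D1:**
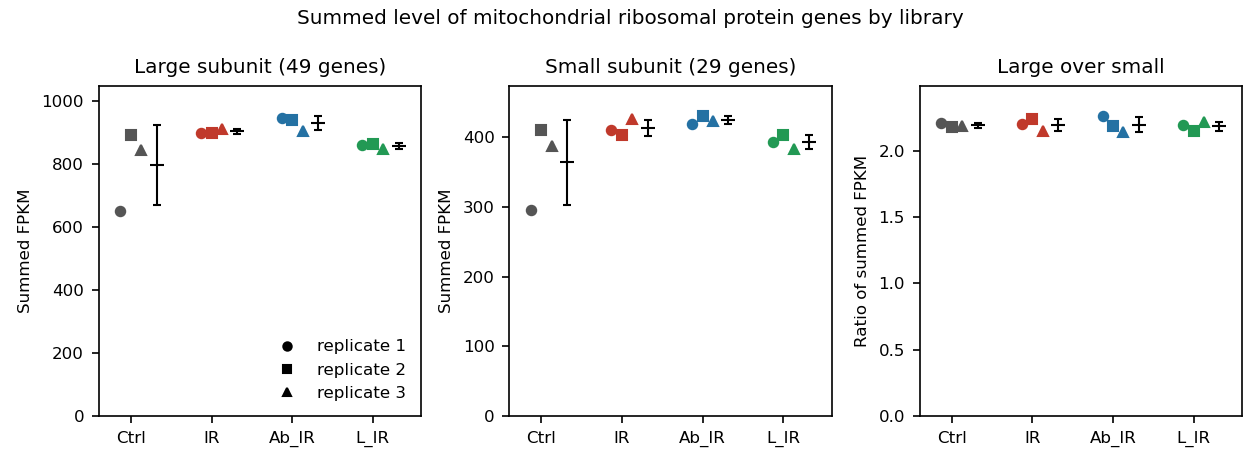
Summed FPKM of the 49 large and 29 small subunit genes and their ratio (y axes) in the 12 libraries by group (x axis). Points are libraries, with the shape giving the replicate, and the bar is the mean with its SD (n = 3). Ctrl replicate 1 lies lowest for both subunits at 653 and 295 FPKM, while the ratio stays between 2.14 and 2.26. L_IR lies below Ab_IR in FPKM as deposited, an order that turns in the means once immunoglobulin rows are taken out (2725 against 2777 parts per 1000000 for the large subunit). For the large subunit that turn rests on Ab_IR replicate 3, at 2584 parts against 2803 and 2789 in replicates 1 and 2.

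The deficit of Ctrl replicate 1 was uneven over the members. Of the 78, 56 were lower there than in both other Ctrl libraries, and 15 were under 50% of the mean of those libraries. Mrpl57 was at 0.67 FPKM against 6.98 and 7.37, and Mrps18c, a homologue of bacterial S18, was at 11.01 against 34.4 and 25.4. Mrpl45, Mrpl24 and Mrps34 were not low there. For a view by length, rows were kept with a mean of at least 5 FPKM in Ctrl replicates 2 and 3, which 74 members met. These libraries also form the denominator of the ratio, so the cut can bias it downward. The median log2 ratio of Ctrl replicate 1 to the other 2 was -0.78 for 8 members with under 1 kb of merged exons. It was -0.42 for 22 with 1 to 2 kb, -0.15 for 25 with 2 to 4 kb and -0.30 for 19 above 4 kb. Over all rows at this level the same medians were -0.35, -0.27, -0.05 and 0.11. Over all rows the ratio was thus lower the shorter the length class, an order that the members above 4 kb did not follow, and the members were lower than all rows in each length class. Across these members Spearman's rho between the ratio and exon length was 0.365 (n = 74), and across all rows 0.425 (n = 7579); these genes share the same 3 libraries and are not independent. The within-group correlation of the members between libraries was 0.821 to 0.988 in Ctrl and 0.980 to 0.994 in the irradiated groups.

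**Figure D2:**
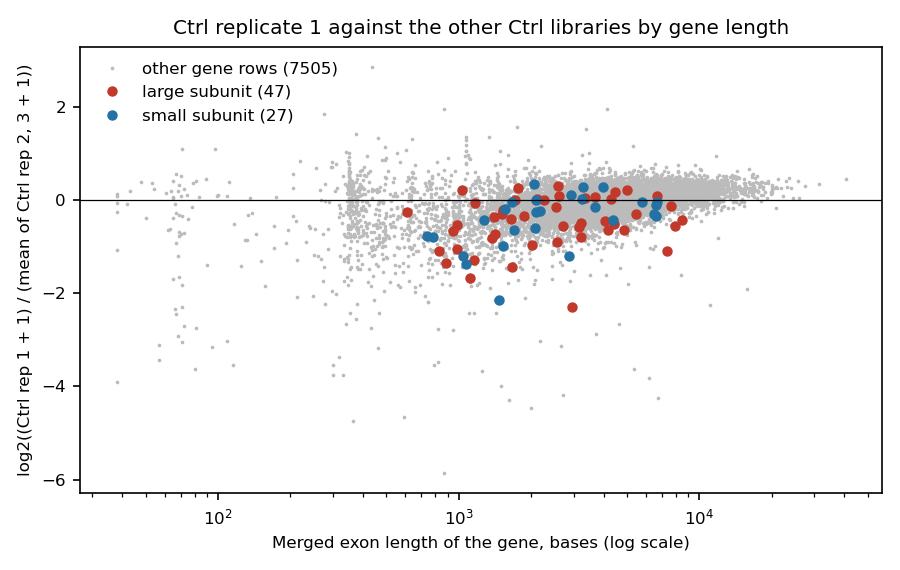
log2 ratio of Ctrl replicate 1 to the mean of Ctrl replicates 2 and 3, with 1 FPKM added to both (y axis), against merged exon length in bases on a log scale (x axis) for 7579 rows. These rows had a mean of at least 5 FPKM in Ctrl replicates 2 and 3. Coloured points are the 74 members at this level (47 large and 27 small subunit genes), of which the shortest have a median of -0.78.

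The comparison of IR with Ctrl asks what radiation changed in these genes at day 3. Genes were called with limma at a Benjamini-Hochberg adjusted p under 0.05 over all rows tested. Of the 78 members, 8 rose and 2 fell, while 17.5% of all 12072 rows rose and 25.5% fell. For the large subunit 6 rose and 1 fell of 49, and for the small subunit 2 rose and 1 fell of 29. The median log2 fold change was 0.19 for the large and 0.12 for the small subunit, against -0.05 for all rows. Without Ctrl replicate 1, 22 members rose and 7 fell, against 25.1% and 34.7% of all rows, and the medians were 0.06 and 0.03 against -0.06. Leaving out an IR library instead left 3, 4 and 6 calls (replicates 1, 2 and 3). All 10 members called with the 3 Ctrl libraries were also called, in the same direction, without that library, and 17 of the 78 changed sign. By the study's added rule of a fold change above 2, 1 member passed, against 7.6% of all rows, and 2 passed without Ctrl replicate 1 (Mrpl53 and Mrps34), against 7.61%. Mostly higher calls among the members held under each scaling tried. With immunoglobulin rows taken out 22 were higher and 1 lower, and with the length trend taken out 18 and 1. Quantile normalization and median log2 ratio scaling each gave 12 and 1. Of all called rows 40.7% were higher as deposited, and 49.9%, 49.6%, 51.5% and 46.8% under these settings in that order.

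**Figure D3:**
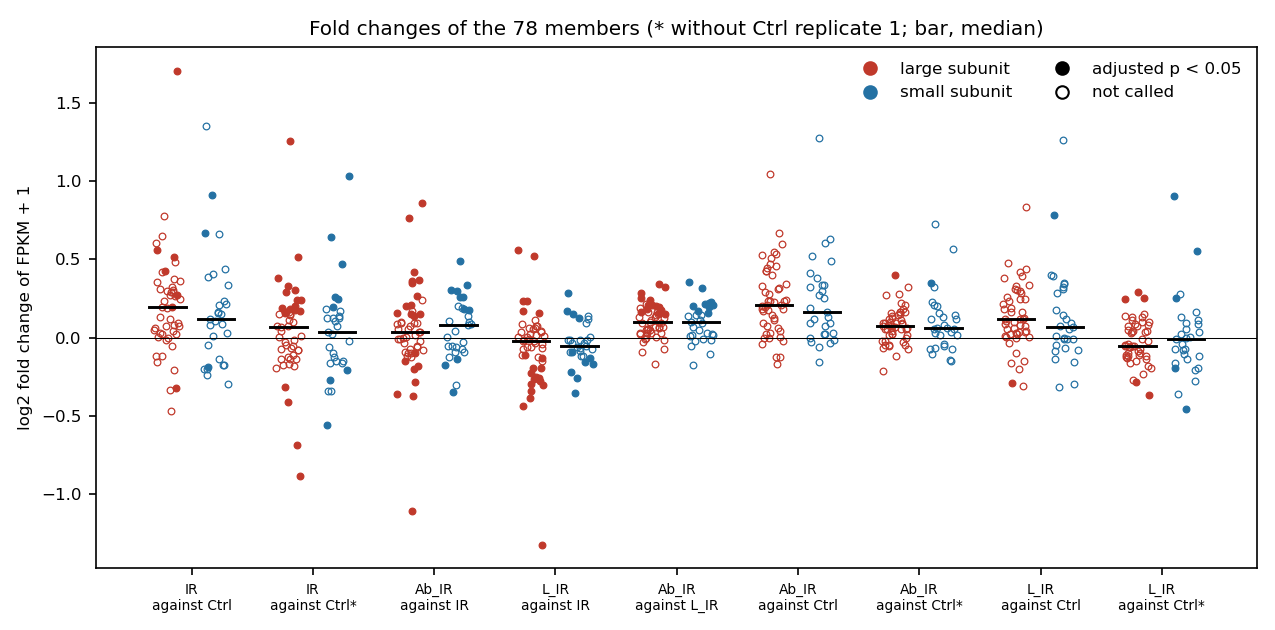
log2 fold change of FPKM + 1 (y axis) of the 49 large and 29 small subunit genes in the 6 comparisons (x axis), those with Ctrl also without Ctrl replicate 1 (starred). Filled points have an adjusted p under 0.05 by limma, and bars are medians. Ab_IR lies mostly above L_IR, with 23 members called higher and 0 lower, a direction that turns to 3 and 7 with immunoglobulin rows taken out, a scaling that moves the median of all rows from 0.01 to -0.11.

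Among large subunit members, Mrpl17 and Mrpl44 rose in IR. Mrpl17 (chr7:105803206-105811099, GRCm38) encodes the bL17 protein near the exit of the nascent chain tunnel. It was at 4.75, 5.50 and 5.07 FPKM in Ctrl and at 7.90, 8.04 and 7.97 FPKM in IR. The groups did not overlap, and the log2 fold change was 0.56 ± 0.07 (SE, adjusted p = 0.00141), or 0.51 ± 0.06 without Ctrl replicate 1. Mrpl17 was at 5.72, 5.86 and 6.20 FPKM in Ab_IR and 5.69, 5.67 and 5.49 FPKM in L_IR, so that every IR library lay above every other library.

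Mrpl44 (chr1:79776018-79781445) encodes a large subunit protein with a fold related to RNase III. It was at 16.0, 22.1 and 20.8 FPKM in Ctrl and at 27.5, 30.4 and 26.8 FPKM in IR. The ranges did not overlap (log2 fold change 0.51 ± 0.13, adjusted p = 0.018; 0.38 ± 0.07 without Ctrl replicate 1). Ab_IR had 22.9, 23.2 and 22.9 FPKM and L_IR 20.6, 21.8 and 21.7 FPKM, again below all IR libraries. Wdfy1 overlaps Mrpl44 on the other strand, at 9.26 to 9.94 FPKM in IR and 7.81 to 8.90 FPKM elsewhere. The strand setting of the counting is not stated. Large subunit members called higher were 1 without IR replicate 1 and 2 without IR replicate 2, so Mrpl17, Mrpl44 and Mrpl53 were not all called.

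Mrpl53 (chr6:83109040-83109939), a protein of the stalk base, had the largest log2 fold change of all members, 1.71 ± 0.40 (adjusted p = 0.0147), and 1.25 ± 0.19 without Ctrl replicate 1. Its values were 1.30, 5.91 and 4.03 FPKM in Ctrl and 16.2, 12.5 and 10.95 FPKM in IR. Ab_IR had 9.05, 4.18 and 4.30 FPKM and L_IR 2.27, 5.68 and 7.11 FPKM. IR was the highest group without overlap, and the spread within each group was wide. Gm42688, a gene model on the same strand that overlaps Mrpl53, was at 4.93 to 5.78 FPKM in IR and at 7.04 to 9.95 FPKM in the other 9 libraries, the opposite order. Reads of the 2 could be divided differently between libraries, so the change of Mrpl53 is uncertain.

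With all 3 Ctrl libraries, Mrpl24 and Mrps9 were the members called lower in IR. Mrpl24 (chr3:87919506-87923672), the uL24 protein beside the tunnel exit, was at 36.3, 36.8 and 34.9 FPKM in Ctrl and at 28.5, 27.6 and 29.6 FPKM in IR. The log2 fold change was -0.32 ± 0.06 (adjusted p = 0.00543), with no overlap and nearly the same value, -0.32, without Ctrl replicate 1. Mrps9, the uS9 protein of the small subunit head, was at 8.65, 8.92 and 9.01 FPKM in Ctrl and at 7.31, 7.72 and 7.92 FPKM in IR (-0.19 ± 0.06, adjusted p = 0.0473; -0.20 without Ctrl replicate 1). Its groups did not overlap either. That call was lost with no filter on low values, under each other scaling, with the length trend taken out, without the mean-variance trend, with the replicate number as a block, and without any 1 IR library, Ctrl replicate 2 or Ctrl replicate 3.

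In the small subunit, Mrps34 and Mrps7 rose in IR. Mrps34 (chr17:24895116-24897502), a protein found in mitochondrial but not bacterial ribosomes, was at 13.6, 9.50 and 11.2 FPKM in Ctrl and at 22.1, 22.8 and 21.5 FPKM in IR. The log2 fold change was 0.91 ± 0.12 (adjusted p = 0.00175), or 1.03 ± 0.07 without Ctrl replicate 1. It was at 14.0, 21.8 and 18.1 FPKM in Ab_IR and at 20.6, 19.6 and 20.3 FPKM in L_IR. Nme3 overlaps it on the same strand at 2.19 to 10.7 FPKM, so reads of the 2 may also be shared.

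Mrps7 (chr11:115603925-115608036), the uS7 protein that organizes the head, was at 14.1, 22.6 and 21.3 FPKM in Ctrl and at 30.7, 30.6 and 30.7 FPKM in IR. Its log2 fold change was 0.67 ± 0.17 (adjusted p = 0.0194), and 0.47 ± 0.05 without Ctrl replicate 1, with no overlap. Without any 1 IR library, 1 small subunit member was called higher, so Mrps34 and Mrps7 were not both called. Ab_IR had 23.1, 24.3 and 24.4 FPKM and L_IR 22.8, 24.2 and 24.3 FPKM, between the Ctrl mean and IR. Gga3 and Mif4gd overlap Mrps7 on the other strand, and the strand setting of the counting is not stated. The other members called higher in IR were Mrpl3, Mrpl10 and Mrpl43, with log2 fold changes of 0.27, 0.19 and 0.43, or 0.30, 0.20 and 0.33 without Ctrl replicate 1, named here after their values were seen.

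**Figure D4:**
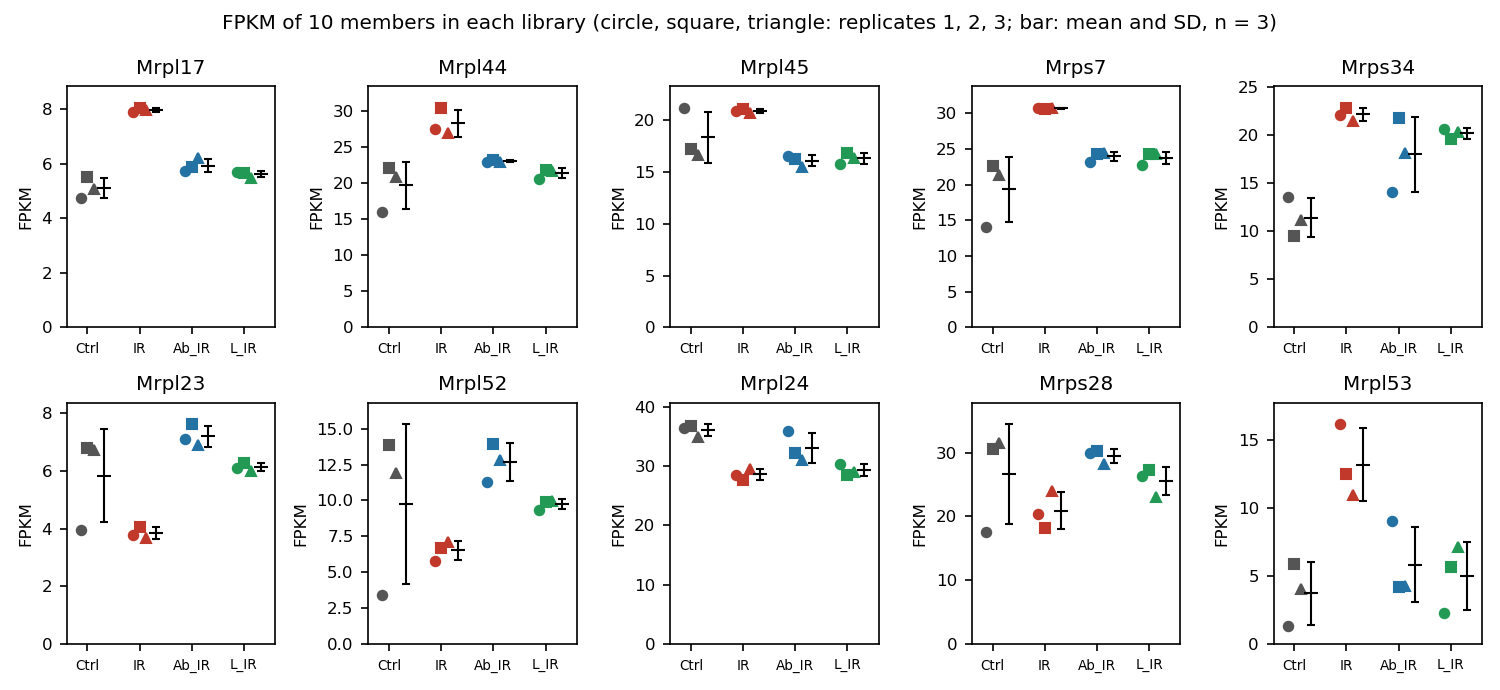
FPKM (y axes, from 0) of 10 members in the 12 libraries by group (x axes). Points are replicates 1 to 3 (circle, square, triangle), and bars are the mean and SD (n = 3). For Mrpl17, Mrpl44 and Mrps7 each IR library lies above all others, whereas Mrpl23 and Mrpl52 are lower in every IR library than in every Ab_IR and L_IR library.

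Comparing Ab_IR with IR asks how the groups labelled Ab_IR and IR differed in these genes. Of the 78 members, 21 rose and 11 fell, while 39.4% of all 12067 rows rose and 29.4% fell. For the large subunit 13 rose and 8 fell, and for the small subunit 8 rose and 3 fell. The medians were 0.03 for the large and 0.08 for the small subunit against 0.06 for all rows. This lean to higher values depended on the scaling, with 9 higher and 28 lower once immunoglobulin rows were taken out of the library sums and 13 higher and 29 lower once a trend with gene length was removed. The calls over all rows shifted with them, from 57.3% higher to 42% and 50.5%, and the median of all rows from 0.06 to -0.06 and 0.01. By the fold rule 1 member passed, against 7.57% of rows.

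Mrpl23 (chr7:142532686-142540747), the uL23 protein at the tunnel exit, was at 3.76, 4.07 and 3.67 FPKM in IR and at 7.11, 7.61 and 6.90 FPKM in Ab_IR. All Ab_IR libraries lay above all IR libraries, with a log2 fold change of 0.76 ± 0.05 (adjusted p = 1.7e-05). Its Ctrl values were 3.96, 6.81 and 6.73 FPKM, so IR against Ctrl gave -0.69 ± 0.06 without Ctrl replicate 1 (adjusted p = 0.000259) and missed the call with it (-0.47, adjusted p = 0.0821).

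Mrpl52 (chr14:54426909-54429756), a large subunit protein without a bacterial counterpart whose promoter stretch is given above, was at 5.79, 6.69 and 7.07 FPKM in IR and at 11.3, 13.9 and 12.8 FPKM in Ab_IR. This was the largest rise among the members, 0.86 ± 0.09 (adjusted p = 0.000112), with no overlap. In Ctrl it was at 3.39, 13.9 and 11.9 FPKM, and its IR to Ctrl value of -0.33 (adjusted p = 0.583) became -0.89 ± 0.10 (adjusted p = 0.000569) without Ctrl replicate 1.

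Mrps28, a small subunit protein related to bacterial S1, was at 20.5, 18.2 and 24.0 FPKM in IR and at 30.0, 30.4 and 28.2 FPKM in Ab_IR (0.49 ± 0.09, adjusted p = 0.00221). It was at 17.6, 30.7 and 31.6 FPKM in Ctrl, and the values of IR lay below those of Ab_IR without overlap. Mrpl28 rose by 0.42 ± 0.03 on the log2 scale, from 29.4 to 30.1 FPKM in IR to 39.2 to 40.8 FPKM in Ab_IR. Mrps17, the uS17 protein, rose by 0.33 and Mrps14, the uS14 protein, by 0.31. Of the genes listed for their known roles, Mrpl12, a stalk protein also reported to bind mitochondrial RNA polymerase, rose by 0.16, Mrps16 by 0.18 and Mrps30 by 0.19, each under the deposited scaling; Mrpl12 had -0.02 with the length trend removed.

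The falls from IR to Ab_IR held several genes that were highest in IR by group mean. The comparison with Ctrl used the same IR libraries, so genes picked as high in IR are likelier to fall here. Mrpl45 (chr11:97315716-97329920), which ties the large subunit to the inner membrane, was at 20.8, 21.1 and 20.7 FPKM in IR and at 16.5, 16.3 and 15.5 FPKM in Ab_IR. The log2 fold change was -0.36 ± 0.04 (adjusted p = 0.000117), without overlap. In Ctrl, Mrpl45 was at 21.2, 17.2 and 16.6 FPKM, with replicate 1 above all IR libraries. Mrpl17 fell by 0.37, Mrpl44 by 0.28, Mrps7 by 0.35 and Mrpl53 by 1.11 on the log2 scale, from the FPKM values given above. Mrps5, the uS5 protein at the mRNA entry, fell by 0.18 and Mrps10 by 0.14. Mrpl53, Mrpl44, Mrps7 and Mrps10 changed sign when the Nppa split was added as a term, an adjustment that rests on Ctrl replicate 1 alone.

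Comparing L_IR with IR asks the same of L_IR, with the same IR libraries as reference. Of the 78 members, 10 rose and 22 fell, while 40.8% of all 12163 rows rose and 26% fell. For the large subunit 6 rose and 15 fell, and for the small subunit 4 rose and 7 fell. The medians were -0.02 and -0.06 against 0.07 for all rows. More members were lower than higher under each of the scalings tried, from 9 against 23 with immunoglobulin rows taken out to 4 against 34 with the length trend removed, but 39 were higher and 6 lower with the Nppa split as a term. Of all called rows 61% were higher as deposited, and 60.3%, 49.2% and 59.8% under these 3 settings in that order. By the fold rule 1 member passed, against 6.22% of rows.

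Mrpl23 was at 6.10, 6.27 and 5.99 FPKM in L_IR and rose by 0.56 ± 0.05 (adjusted p = 4.5e-05), and Mrpl52 was at 9.36, 9.92 and 9.96 FPKM and rose by 0.52 ± 0.07. Both lay above all IR libraries. Mrpl2, the uL2 protein near the peptidyl transferase centre, was at 29.1, 27.8 and 30.5 FPKM in IR and at 34.6, 34.5 and 34.4 FPKM in L_IR (0.24 ± 0.04). Mrps17 rose by 0.17, Mrps35 by 0.15 and Mrps28 by 0.29, although for Mrps28 the L_IR values of 26.4, 27.3 and 23.1 FPKM overlapped those of IR. Mrps35 had -0.02 with quantile normalization.

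Of the falls from IR to L_IR, Mrpl53 fell by 1.32, Mrpl17 by 0.44 (adjusted p = 3.1e-05), Mrpl44 by 0.39 and Mrps7 by 0.36 on the log2 scale. With the Nppa split as a term, set by Ctrl replicate 1 alone, Mrpl53, Mrpl44, Mrps7 and Mrps12 changed sign. Mrps12, the uS12 protein of the decoding centre, was at 20.1, 21.7 and 20.6 FPKM in IR and at 17.7, 18.3 and 15.7 FPKM in L_IR (-0.26 ± 0.06, adjusted p = 0.00618). Mrps12 was at 6.94, 17.4 and 17.0 FPKM in Ctrl, with Ctrl replicate 1 far below all others. Mrps23 was at 29.6, 28.8 and 30.3 FPKM in IR and at 25.2, 25.1 and 25.6 FPKM in L_IR (-0.22 ± 0.03), without overlap.

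Ab_IR was also compared with L_IR. Of the 78 members, 23 were higher in Ab_IR and 0 lower, while 18.2% of all 12194 rows were higher and 19.8% lower; 31 members had an unadjusted p under 0.05. Without L_IR replicate 3 the calls were 12 higher and 1 lower, and in a fit of all 12 libraries 1 was called. The 23 held 14 large and 9 small subunit genes, with medians of 0.10 and 0.10 against 0.01 for all rows. With immunoglobulin rows taken out of the sums, 3 members were higher and 7 lower, the medians became -0.04 and -0.03, and the median of all rows moved to -0.11. Immunoglobulin rows held 13.9% ± 0.4 of the summed FPKM in Ab_IR and 22.2% ± 0.4 in L_IR (SD, n = 3). Taking them out scales all other genes of a library alike, and of all called rows 47.9% were higher in Ab_IR with them and 16.1% without them. The member medians lay above that of all rows in both cases. With the length trend removed, 12 members were higher and 3 lower, and 50.4% of all called rows were higher. The medians were then 0.04 and 0.08 against 0.01 for all rows. The direction was not particular to the members. Medians were 0.28 for cytosolic ribosomal protein genes and 0.20 for complex I subunits as deposited.

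The largest differences were in Mrps25, at 9.59, 8.60 and 9.10 FPKM in Ab_IR against 6.78, 7.16 and 6.78 FPKM in L_IR (0.35 ± 0.05, adjusted p = 0.00193), and in Mrpl52 (0.34 ± 0.07). Mrpl14, the uL14 protein at the subunit interface, was at 20.6, 22.8 and 23.3 against 17.2, 18.0 and 17.4 FPKM (0.32 ± 0.05). Mrpl51 was at 15.7, 15.7 and 15.7 against 12.5, 13.2 and 12.4 FPKM (0.28 ± 0.04). None of these 4 overlapped between the groups. They were named for the largest differences, which makes this likely beforehand, and the share over all rows was not counted. Mrps36, which is also a component of the 2-oxoglutarate dehydrogenase complex, differed by 0.31, Mrps12 by 0.23, Mrps18c by 0.21, Mrps16 by 0.20 and Mrpl12 by 0.16, of which Mrps18c overlapped.

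Against Ctrl, few members were called in Ab_IR or L_IR. In Ab_IR against Ctrl, 0 members were called with limma, 8 had an unadjusted p under 0.05, and 1.45% of all 12134 rows rose and 0.651% fell. Without Ctrl replicate 1, 2 members rose and 0 fell, against 3.6% and 2.38% of rows; these were Mrpl28 (0.40, adjusted p = 0.012) and Mrps26 (0.35, adjusted p = 0.0404), named after their values were seen. In L_IR against Ctrl, Mrps34 rose by 0.78 ± 0.12 (adjusted p = 0.0125) and Mrpl24 fell by 0.29 (adjusted p = 0.0338), against 4.76% and 4.08% of all 12251 rows. Without Ctrl replicate 1 these values were 0.90 ± 0.07 (adjusted p = 0.000505) and -0.28 ± 0.05 (adjusted p = 0.0142). Both calls were lost without any 1 of the L_IR libraries, and 1 was lost without Ctrl replicate 2 or 3. Without Ctrl replicate 1, 6 members rose and 4 fell, against 10.4% and 10.3% of rows.

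Other genes of mitochondrial translation were taken from lists and read against the same shares of all rows, which for IR against Ctrl were 17.5% higher and 25.5% lower, or 25.1% and 34.7% without Ctrl replicate 1. They were 39.4% higher and 29.4% lower in Ab_IR against IR, and 40.8% and 26% in L_IR against IR. Of 6 listed genes tied to the mitochondrial ribosome whose names fall outside the rule, 3 rose and 1 fell in IR, with and without Ctrl replicate 1. Without it Gadd45gip1 rose by 0.33, Aurkaip1 by 0.27 and Ndufab1 by 0.23, while Ptcd3 fell by 0.20. Ndufab1 is a complex I subunit and was counted with these by the list alone. Of 27 assembly and rRNA modification genes, 2 rose and 6 fell in IR against Ctrl, and 5 rose and 10 fell without Ctrl replicate 1. Of the same genes, 12 rose and 1 fell from IR to Ab_IR, and 10 rose and 2 fell from IR to L_IR, so that the higher calls were near the share of all rows. Mrm1, an rRNA methyltransferase, had the largest values, -0.51 in IR against Ctrl (adjusted p = 0.0713), -0.73 without Ctrl replicate 1 (adjusted p = 0.000514), 0.94 in Ab_IR against IR and 0.66 in L_IR against IR. Tfb1m, which methylates the small subunit rRNA, fell by 0.44 in IR, by 0.58 without Ctrl replicate 1, and rose by 0.49 in Ab_IR against IR.

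Among 18 translation factors, 3 rose and 2 fell in IR against Ctrl, 4 rose and 2 fell without Ctrl replicate 1, 5 rose and 5 fell in Ab_IR against IR, and 4 rose and 5 fell in L_IR against IR. Tufm, the elongation factor that brings aminoacyl-tRNA, rose by 0.53 in IR, and Gfm1, the translocation factor, rose by 0.33 (0.48 and 0.32 without Ctrl replicate 1). Gfm1 fell by 0.30 (Ab_IR) and 0.28 (L_IR) against IR. Guf1, a back-translocation factor, had the opposite signs, with -0.63 in IR (-0.59 without Ctrl replicate 1), 0.46 in Ab_IR against IR and 0.41 in L_IR against IR. Of 17 mitochondrial aminoacyl-tRNA synthetases, 0 rose and 1 fell in IR against Ctrl, 0 rose and 5 fell without Ctrl replicate 1, and 7 rose and 1 fell in each of Ab_IR and L_IR against IR, where 39.4% and 40.8% of all rows rose. Of 10 regulators of nuclear genes for mitochondria, 1 rose and 1 fell in IR against Ctrl, and 4 rose and 1 fell without Ctrl replicate 1. The 1 that fell was Myc (-0.76, or -0.68 without that library). Gabpa, which binds the ETS core, had 0.12 with it (adjusted p = 0.384) and rose by 0.21 without it. Of the 10 regulators, 1 rose and 4 fell in Ab_IR against IR, and 3 rose and 4 fell in L_IR against IR. Gabpa fell by 0.38 and 0.24 there. Of 12 genes for replication and transcription of mitochondrial DNA, 1 rose and 4 fell in IR against Ctrl, and 2 rose and 4 fell without Ctrl replicate 1. In Ab_IR against IR 4 of 10 tested rose and 2 fell, and in L_IR against IR 5 of 11 rose and 1 fell.

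The calls were also set beside those of other ribosomal and respiratory genes. In IR without Ctrl replicate 1, 1 of 79 cytosolic ribosomal protein genes rose and 70 fell (median -0.49), 0 of 36 complex I subunits rose and 23 fell (median -0.23), and 0 of 13 mRNAs encoded by mitochondrial DNA rose and 12 fell (median -0.45). With all 3 Ctrl libraries the lower calls were 9, 0 and 7. In Ab_IR against IR, 73 of 80 cytosolic ribosomal genes and 25 of 36 complex I subunits rose, and 1 and 0 fell. In L_IR against IR, 68 of 79 and 14 of 36 rose, and 2 and 3 fell. The mRNAs of mitochondrial DNA had 7 higher and 3 lower in Ab_IR and 10 higher and 0 lower in L_IR, each of 13. In Ab_IR against L_IR, 57 of 80 cytosolic ribosomal genes were higher and 1 lower. Of 36 complex I subunits 21 were higher and 0 lower there, and of 13 mRNAs of mitochondrial DNA 1 and 5. The shares of all rows were 18.2% and 19.8%. The comparisons share libraries, and the difference between the lists was not tested.

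**Figure D5:**
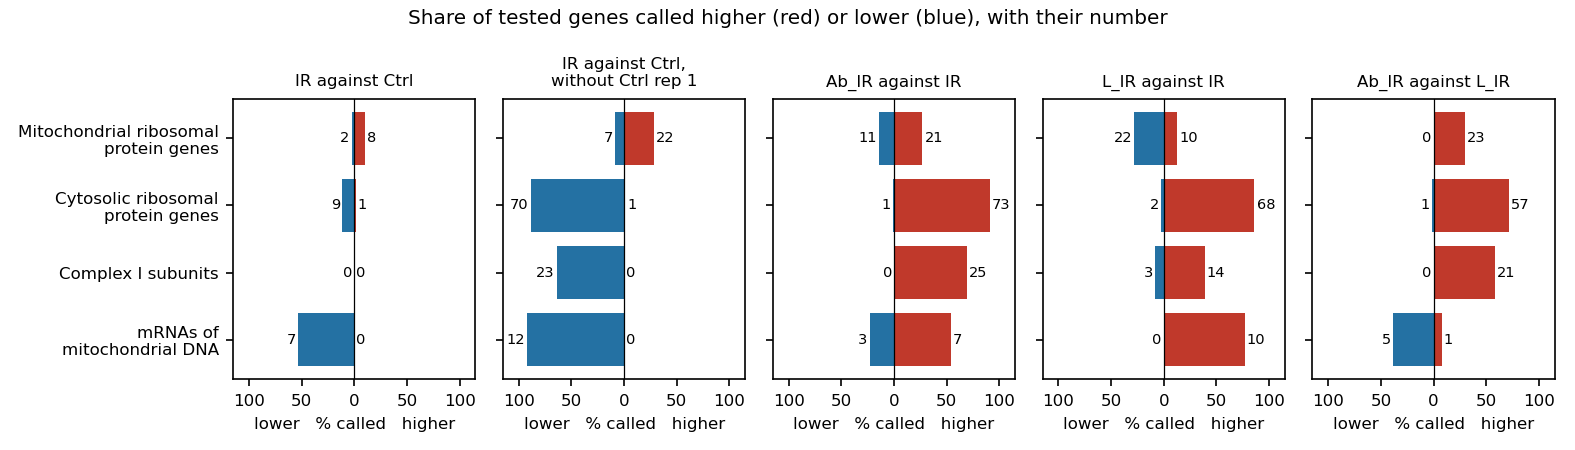
Share of tested genes called higher (red, to the right) or lower (blue, to the left) at an adjusted p under 0.05, in percent (x axes), for 4 gene lists (y axis) in 5 panels of comparisons. Numbers beside the bars are the genes called. Cytosolic ribosomal genes had 70 lower in IR without Ctrl replicate 1 and 73 higher in Ab_IR against IR, whereas the 78 mitochondrial ribosomal genes had 22 higher and 7 lower, then 21 higher and 11 lower, of which the last turns to 9 and 28 with immunoglobulin rows taken out, as the higher share of all called rows goes from 57.3% to 42%.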

How the data were processed

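RNA was taken from bone marrow cells sorted as HSCs, and stranded poly(A) libraries were made, per the labels. The study's methods name fastp, RSEM and DESeq2, and the submitters' processing notes name fastp, HISAT2, StringTie, GRCm38 and mm10, so the tool behind the values is not settled. The deposited files give 1 value per gene row with no unit named. They were read as FPKM made by the authors, since values times merged exon length in kb summed to 913837 to 945611 in every library. Depth is unknown, so no counting intervals are given.

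FPKM are not counts, so limma 3.58.1 (trend) in R 4.3.3 took log2(FPKM + 1) of each pair of groups. A row was kept when 3 or more libraries in a fit reached 1 FPKM. p-values were adjusted by Benjamini-Hochberg over all rows and called under 0.05. The tests are two-sided, and fold changes on this scale understate those of low genes. The fits were tested on simulated data. GENCODE M21 (GRCm38) gave positions and lengths for 96.5% of rows, and 12 members overlap another gene on the same strand and 33 on the other.

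The members and lists were chosen with earlier results of these data known. Named members were, for each comparison and subunit, up to 3 called members with the largest rise and 3 with the largest fall, plus called genes of a panel of 12. Alternatives covered the pseudocount, the filter, scalings, a length trend, a replicate block, the Nppa split and leaving out each library. The groups share replicate numbers, but same-numbered libraries deviated together in few cases (correlations of -0.269 to 0.208), so the numbers were not taken as pairs.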

Additional observations from a re-analysis of the deposited data

How the results depend on the processing

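Depth is unknown, so it cannot be said what low counts limit, and only 3 libraries a group set the errors. Of the 78 members, 10 were called in IR against Ctrl, 32 in Ab_IR against IR, 32 in L_IR against IR, 23 in Ab_IR against L_IR, 0 for Ab_IR and 2 for L_IR against Ctrl. In that order, the added rule of a fold change above 2 left 1, 1, 1, 0, 0 and 0. With all 12 libraries in a single fit the numbers were 28, 18, 13, 1, 9 and 8. With immunoglobulin rows taken out they were 23 in IR against Ctrl, 10 in Ab_IR against L_IR and 1 in L_IR against Ctrl. With the length trend taken out they were 19 in IR against Ctrl and 15 in Ab_IR against L_IR. The mean summed FPKM of the large subunit became 929 in Ctrl, 1125 in IR, 1042 with Ab_IR and 1061 with L_IR, and that of the small subunit 514 in IR, 474 with Ab_IR and 487 with L_IR, when immunoglobulin rows were taken out and the rest scaled to a common sum. Without a filter on low values, which adds rows to the adjustment, 14 were called in Ab_IR against L_IR. With the Nppa split as a term 52 were called in Ab_IR against IR. The cause of these changes was not tested unless named. Numbers of calls under the other settings that kept all libraries and used no block stayed within 1.5 times those first given, and scaling to the median log2 ratio moved the split in Ab_IR against IR to 18 higher and 17 lower, quantile normalization to 17 and 15. Median log2 fold changes moved more. In Ab_IR against IR those of the large and small subunit, 0.03 and 0.08, became -0.11 and -0.07 with immunoglobulin rows taken out, -0.10 and -0.06 with the length trend taken out and 0.42 and 0.27 with the Nppa term, and that of the large subunit turned to -0.01 and -0.00498 with quantile normalization and median log2 ratio scaling. In L_IR against IR they went from -0.02 and -0.06 to 0.29 and 0.23 with the Nppa term, -0.11 and -0.13 with the length trend taken out, -0.07 and -0.10 with median log2 ratio scaling and, for the large subunit, -0.05 with quantile normalization. In IR against Ctrl the small subunit median of 0.12 became 0.20 with immunoglobulin rows taken out.

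Leaving out each library in turn gave 3 to 29 calls in IR against Ctrl, with 29 without Ctrl replicate 1 and 3, 4 and 6 without IR replicates 1, 2 and 3. It gave 29 to 33 in Ab_IR against IR, 26 to 32 in L_IR against IR, 13 to 23 in Ab_IR against L_IR (13 without L_IR replicate 3), 0 to 2 for Ab_IR and 0 to 10 for L_IR against Ctrl, the highest of the last 2 without Ctrl replicate 1. For L_IR against Ctrl, 0 were called without any 1 of the L_IR libraries and 1 without Ctrl replicate 2 or 3. These numbers were the same, 29, 2 and 10, when the rows tested were kept as with all libraries.

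The replicate number as a block gave 7 calls in IR against Ctrl, 33 in Ab_IR against IR, 29 in L_IR against IR, 12 in Ab_IR against L_IR, 0 for Ab_IR and 1 for L_IR against Ctrl. Same-numbered libraries had correlations of -0.269 to 0.208, and in no comparison did each library correlate best with its own number.

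Of the named members, Mrpl12 in Ab_IR against IR turned to -0.0207 with the length trend taken out, and Mrps35 in L_IR against IR to -0.0161 with quantile normalization. With the Nppa split as a term, Mrpl53, Mrps7, Mrps10 and Mrpl44 turned to 0.248, 0.254, 0.247 and 0.116 in Ab_IR against IR, and Mrpl53, Mrpl44, Mrps7 and Mrps12 to 0.0353, 0.0132, 0.243 and 0.934 in L_IR against IR. That term is set by Ctrl replicate 1 alone, since the other groups do not vary in it.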
